A study of Homo sapiens with 2 samples.

Results

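The 6 genes described here, LRP8, SCARB1, NPC1, NPC2, STARD4 and TMEM97, encode proteins that take lipoprotein cholesterol into a cell, release it from lysosomes or move it on to other membranes. All probe sets of the array whose only annotated gene was one of these were taken, which gave 18 of the 54613 probe sets that are not array controls, and 6 of 19775 named genes. RNA of CL1-0 cells stably transduced with a vector expressing FDFT1 was set against RNA of CL1-0 cells with a control vector, each on 1 Affymetrix array. The CL1-0 line was established from a human lung adenocarcinoma and is listed by its submitters as of alveolar type II origin, and both cultures had been selected with puromycin for 2 weeks. The sources used here do not name the promoter of the vector or say whether the cells were clones. FDFT1 encodes squalene synthase, the enzyme that turns farnesyl pyrophosphate into squalene and so directs the mevalonate pathway towards sterols. FDFT1 itself has no value here, and its overexpression is taken from the labels.

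Animal cells obtain cholesterol by synthesis and by uptake. Lipoprotein particles are bound by receptors of the LDL receptor family, to which LRP8 belongs, and are carried to late endosomes and lysosomes, where their cholesteryl esters are hydrolysed. NPC2, a soluble protein of the lysosomal lumen, hands the free cholesterol to NPC1, a membrane protein, and loss of either causes Niemann-Pick type C disease. SCARB1, the scavenger receptor SR-BI, works differently and takes cholesteryl esters out of HDL without internalising the particle. STARD4 carries cholesterol through the cytosol, and TMEM97, also known as the sigma-2 receptor, is a membrane protein of the endoplasmic reticulum that binds NPC1. LRP8, or apolipoprotein E receptor 2, is also a receptor of reelin. STARD4 and TMEM97 are known to be induced when cells are short of sterol, through the SREBP transcription factors.

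Promoter sequences are shown for STARD4, the gene whose only probe set was higher with FDFT1, TMEM97, whose probe sets differed in direction, and NPC1, whose brighter probe set was lower. RefSeq (GRCh38.p14) gave a window of 300 bases, 250 before the transcript start and 50 after it, for 5 of the 6 genes. Capitals mark CCAAT on either strand, the motif of NF-Y, a factor known to act together with SREBPs.
STARD4 (chr5:111512486-111512785, minus strand): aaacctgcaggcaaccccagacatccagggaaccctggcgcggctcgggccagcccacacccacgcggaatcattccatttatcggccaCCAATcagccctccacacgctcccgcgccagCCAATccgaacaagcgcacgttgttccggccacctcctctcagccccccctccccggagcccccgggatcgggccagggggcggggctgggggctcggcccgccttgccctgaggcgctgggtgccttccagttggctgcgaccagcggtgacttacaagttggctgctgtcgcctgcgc
TMEM97 (chr17:28318950-28319249, plus strand): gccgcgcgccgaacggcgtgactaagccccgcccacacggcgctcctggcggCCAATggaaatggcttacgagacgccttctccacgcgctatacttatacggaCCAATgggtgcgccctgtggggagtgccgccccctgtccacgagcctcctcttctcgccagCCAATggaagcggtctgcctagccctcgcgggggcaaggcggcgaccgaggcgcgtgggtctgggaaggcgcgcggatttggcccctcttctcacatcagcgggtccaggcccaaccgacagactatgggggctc
NPC1 (chr18:23586457-23586756, minus strand): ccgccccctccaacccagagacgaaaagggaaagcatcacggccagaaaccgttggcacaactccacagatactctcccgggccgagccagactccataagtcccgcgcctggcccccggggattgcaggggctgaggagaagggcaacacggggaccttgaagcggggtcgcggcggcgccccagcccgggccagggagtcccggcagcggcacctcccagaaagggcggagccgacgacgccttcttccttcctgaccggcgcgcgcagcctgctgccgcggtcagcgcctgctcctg

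The TMEM97 window held 3 copies of CCAAT and the STARD4 window 2, while the NPC1 and LRP8 windows held none. Of 35116 RefSeq promoter windows of this length, 34.6% held CCAAT at least once, 10.8% at least 2 times and 3.26% at least 3 times. NPC2 has a pair of annotated starts with overlapping windows, and the upstream window held 2 copies. The core CACNCCAC of the sterol regulatory element, read on both strands, was in none of the 6 windows of these genes and in 5.87% of all windows. CACGTG, an E-box, was likewise in none of them and in 7.26% of all. The GC box GGGCGG was found in every window of the 5 genes, from 1 copy in STARD4 to 9 in the downstream window of NPC2, and in 45.0% of all windows. These matches describe letters in short windows and say nothing about which factor was bound.

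Signals are MAS5 intensities on a linear scale as deposited. The median signal was 12.1 on the FDFT1 array and 12.3 on the control array, and the 75th percentiles were 96.0 and 105. Differences are log2 of FDFT1 over control after centring on the median difference of probe sets well represented on both arrays, which was -0.11. A floor was set at the median signal, 12.2, and a probe set was called measured if the higher of its centred signals reached it, as 29891 did. With 1 array per group no difference carries a p-value. In its place, each difference is given with a probe-level error, the spread between the 2 brightest probe sets of the same gene at similar signal. It fell with signal: 0.50 where the mean log2 signal was under 5, then 0.31 (5 to 7), 0.22 (7 to 9), 0.16 (9 to 11) and 0.10 at the bright end. It does not cover differences between cultures. A change in RNA per cell and a change in the share of cells expressing a gene cannot be told apart in such bulk samples.

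Of the 18 probe sets of the 6 genes, 16 were measured, and all 6 genes had at least 1. The exceptions were the probe set 215835_at of SCARB1, with signals of 0.53 on the FDFT1 array and 2.92 on the control array, and 238873_at of NPC1, with 0.45 and 0.11. Signals so far under the floor have no meaningful order. Among the measured probe sets, 11 were lower with FDFT1 and 5 higher, while 49.5% of all measured probe sets were lower. Before centring, 14 of the 16 were lower, against 63.5% of all.

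**Figure D1:**
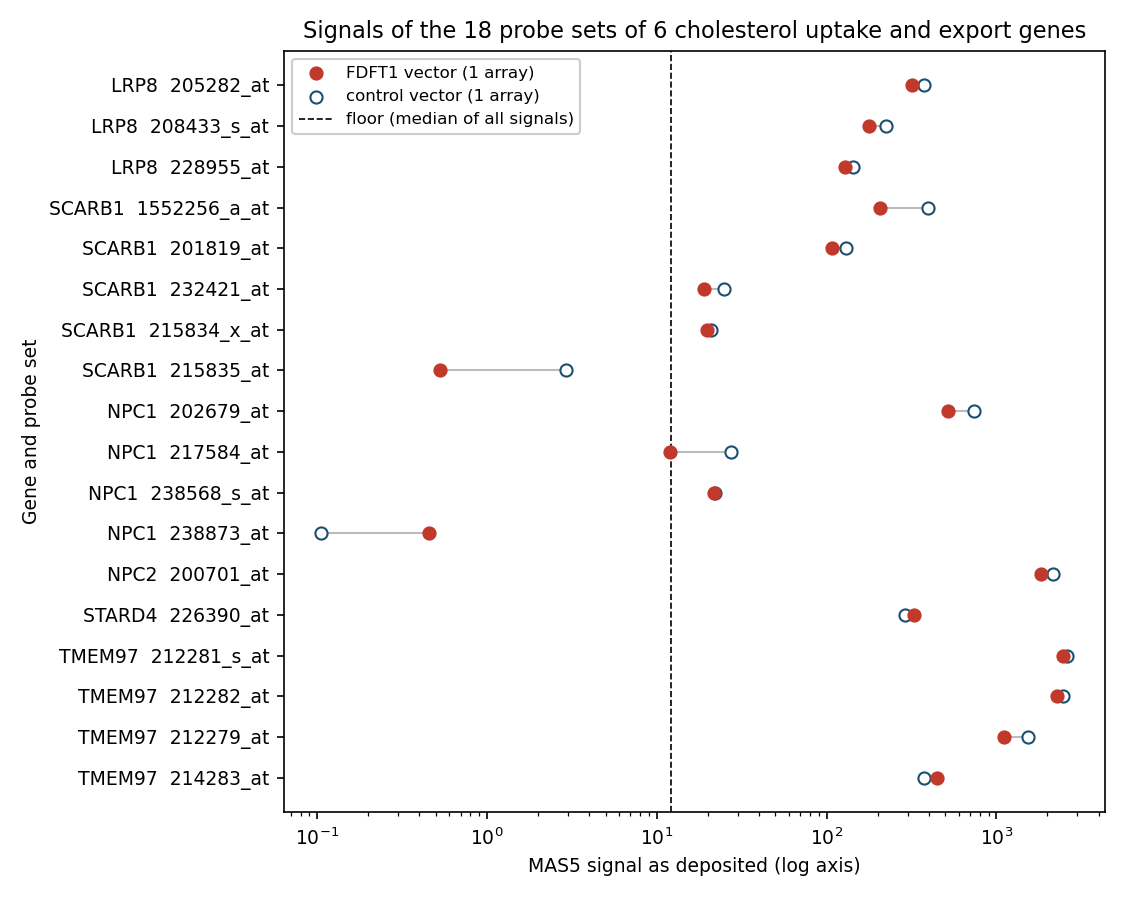
Deposited MAS5 signals (log axis) of the 18 probe sets of the 6 genes, 1 point for the FDFT1 array (filled) and 1 for the control array (open) in each row. Of the probe sets to the right of the dashed floor at 12.2 on at least 1 array, only STARD4 226390_at and TMEM97 214283_at had the higher deposited signal on the FDFT1 array.

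Few of these differences were large. At least 1.5-fold lower signals were found for 2 of the 16 measured probe sets (12.5%), 1 of SCARB1 and 1 of NPC1, against 4.63% of all measured probe sets. None was at least 1.5-fold higher, against 5.63% of all. Only the dim NPC1 probe set 217584_at was at least 2-fold lower (background 0.806%), and none was at least 2-fold higher (background 0.917%). With counts this small, the shares of the 6 genes are not set apart from the background. By the brightest probe set of each gene, 1 of 6 genes was at least 1.5-fold lower, SCARB1, against 3.4% of 13106 measured genes, and none was 2-fold lower (background 0.649%) or 2-fold higher (background 0.656%). The median over the 6 genes was -0.13, against -0.001 over all measured genes.

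The lipoprotein receptors are given first. LRP8 was measured by 3 probe sets, all with mean log2 signals from 7 to 9 and all slightly lower with FDFT1. Its probe set 205282_at had a signal of 317.2 on the FDFT1 array and 374.5 on the control array, a centred difference of -0.13 with an error of 0.22. The probe set 208433_s_at, annotated from another RefSeq transcript of the gene, had 178.1 and 225.4 (-0.23, error 0.22). The remaining one, 228955_at, annotated from an expressed sequence tag, had 128.0 and 143.9 (-0.06, error 0.22). Before centring the signals were lower by 15.3%, 21.0% and 11.1%. The 3 probe sets of LRP8 agreed closely, spanning 0.17 on the log2 scale. Over the 1762 genes with 3 measured probe sets the median span was 0.46, and 87.1% spanned at least as much as LRP8. For such spans, here and below, genes were matched on the number of measured probe sets and not on signal. Only 208433_s_at passed its probe-level error, at 1.1 times, and 17.3% of the 6842 probe sets of similar signal were as low or lower. The sign was the same in all 3 probe sets, but no LRP8 probe set stood apart from probe sets of its signal.

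SCARB1, the HDL receptor, had the largest well-measured difference of the 6 genes, carried by 1 of its 4 measured probe sets. The probe set 1552256_a_at had a signal of 207.5 on the FDFT1 array and 395.3 on the control array. This was 1.77-fold lower after centring (-0.82, error 0.22), 3.8 times its probe-level error. Of the 6842 probe sets with mean log2 signals from 7 to 9, 0.19% were as low or lower. The probe set 201819_at carries the same RefSeq transcript in its annotation and had 107.0 on the FDFT1 array and 129.4 on the control array (-0.17, error 0.31). It was lower by much less. The difference between these probe sets was -0.65 with a combined error of 0.38, or 1.7 times that error, so the probe-level error does not separate them. The dim probe sets 232421_at and 215834_x_at had 19.08 against 25.01 (-0.28) and 19.83 against 20.89 (0.031), both with an error of 0.50. The sign of the last comes from the centring, as it was -0.075 without it, -0.014 after quantile normalization and -0.026 after loess. The suffix _x_at marks probe sets that can match other genes, and _a_at those that match several transcripts of 1 gene. The 4 differences spanned 0.85, a span reached by 24.5% of the 771 genes with 4 measured probe sets (median 0.61). SCARB1 was therefore lower on 3 of 4 probe sets, with sizes that depended on the probe set.

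The genes of the lysosomal export proteins were both lower with FDFT1, NPC1 on its brightest probe set and NPC2 on its only one. For NPC1, 202679_at had a signal of 521.4 on the FDFT1 array and 739.8 on the control array. This was 1.32-fold lower after centring (-0.40, error 0.16), 2.5 times its error. Of the 4020 probe sets with mean log2 signals from 9 to 11, 1.04% were as low or lower. NPC1 had 2 other measured probe sets, both dim. The probe set 217584_at had 11.92 on the FDFT1 array, under the floor as deposited and just above it after centring, and 27.28 on the control array. Its difference of -1.09 had an error of 0.50, and 1.35% of the 9611 probe sets of that range were as low. Values set to the floor shorten differences in this dim range, so the error and the share can both be too small. The probe set 238568_s_at had 21.77 and 21.97, which is 0.093 after centring and -0.013 without it. The 3 NPC1 probe sets spanned 1.18, and 4.6% of genes with 3 measured probe sets spanned as much. The brighter probe set and 217584_at were both lower, and they differed from each other by 0.69 with a combined error of 0.52.

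NPC2 had a single probe set, 200701_at, with a signal of 1834 on the FDFT1 array and 2167 on the control array. The centred difference was -0.13 with an error of 0.10, 1.3 times that error, and 7.15% of 1581 probe sets with mean log2 signals above 11 were as low or lower. As deposited, the NPC2 signal was lower by 15.4%, which is -0.24 on the log2 scale before the shift shared by the whole array is taken out. NPC1 and NPC2, which act in sequence, differed in the same direction, with that of NPC2 close to the probe-level error.

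**Figure D2:**
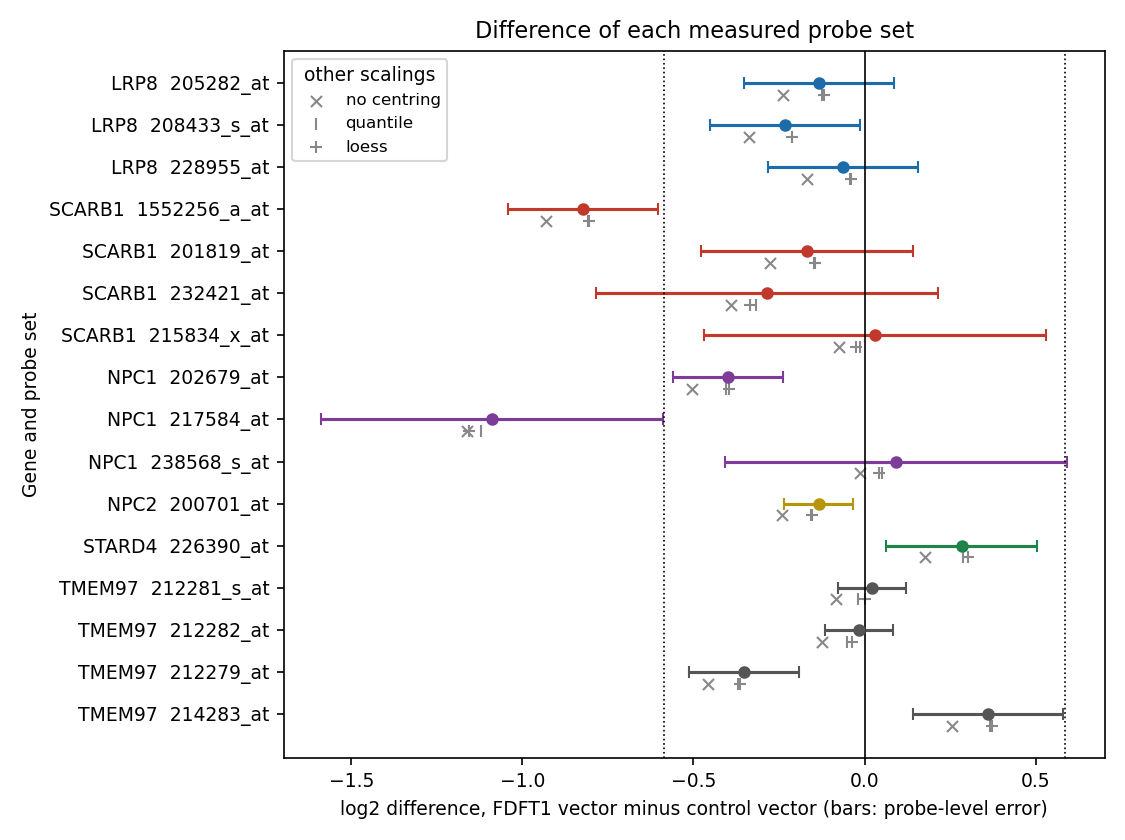
Centred log2 difference (FDFT1 minus control, horizontal axis) of the 16 measured probe sets with the probe-level error as bars, and the values under other scalings as grey marks. Dotted lines mark 1.5-fold, passed by SCARB1 1552256_a_at at -0.82 and NPC1 217584_at at -1.09.

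STARD4, the cytosolic cholesterol carrier, was the only one of the 6 genes with no probe set below 0. Its single probe set, 226390_at, had a signal of 329.6 on the FDFT1 array and 291.3 on the control array. The centred difference was 0.28 with an error of 0.22, and 10.9% of probe sets of its range were as high or higher. The FDFT1 signal was also the higher one as deposited, by 13.2%. The difference lay between 0.18 and 0.30 under every scaling and floor tried, so its direction did not depend on them, but with 1 probe set nothing else on the array bears on it.

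TMEM97 had bright signals and no common direction. Its probe set 212281_s_at had a signal of 2473 on the FDFT1 array and 2622 on the control array (0.022, error 0.10), and 212282_at, annotated from the same sequence tag, had 2265 and 2467 (-0.017, error 0.10). These differed from each other by 0.039, and neither passed its error. The sign of 212281_s_at depended on the scaling, being -0.084 without centring and -0.019 after quantile normalization. The probe set 212279_at was lower, with 1113 on the FDFT1 array and 1528 on the control array (-0.35, error 0.16). In its range 2.14% of probe sets were as low. In contrast, 214283_at was higher, with 449.5 and 376.7 (0.36, error 0.22), and 6.83% of its range was as high. These 2 probe sets differed by 0.71 with a combined error of 0.27, 2.6 times that error, and were the only pair past 2 errors among the 18 pairs of measured probe sets of the same gene. The span of 0.71 was reached by 39.3% of genes with 4 measured probe sets, whatever their signal. The TMEM97 probe sets therefore gave no single answer for the gene, and their mean difference was 0.003.

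Read over the 6 genes, 8 of the 16 measured probe sets passed their own probe-level error and 4 passed 2 times that error, all 4 of them lower. These were SCARB1 1552256_a_at, NPC1 202679_at, NPC1 217584_at and TMEM97 212279_at, with the limit given above for the error of 217584_at. Over all measured probe sets, 32.6% passed the error and 6.93% passed 2 times the error. The same 4 probe sets lay below the 5th percentile of all probe sets of their signal range, where 5% of all lie by definition. The other 12 lay between the 5th and the 95th percentile. This ranks the same differences again and is not a separate result. The 4 probe sets come from 3 genes, and for each of these genes another probe set lay within its error of 0. Probe sets of 1 gene read the same RNA on the same 2 arrays and are not separate observations of it.

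**Figure D3:**
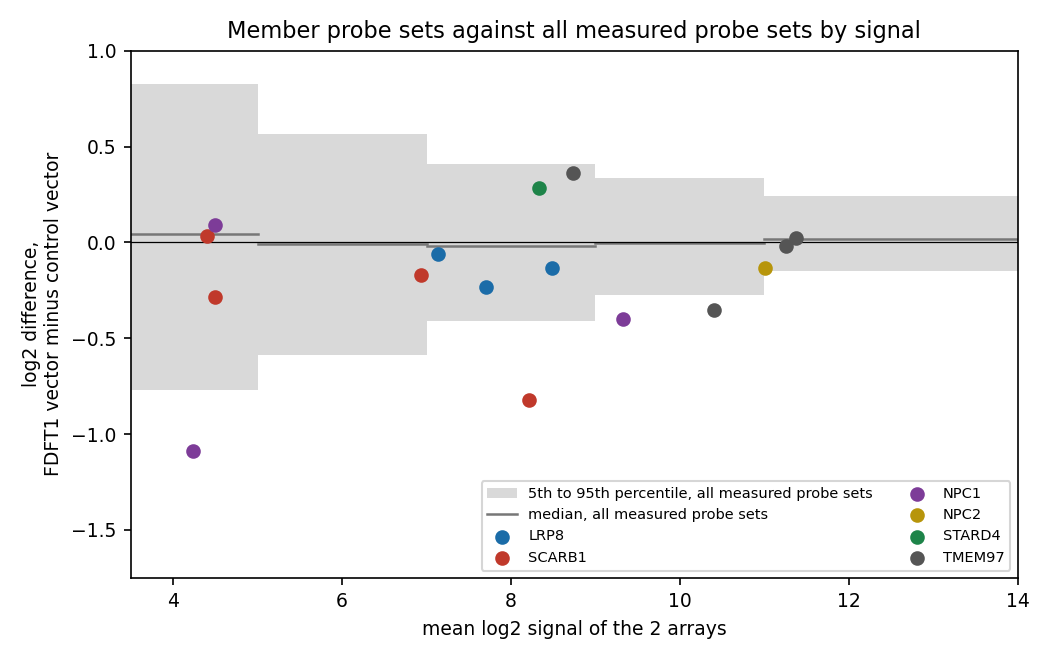
Centred log2 difference (vertical axis, FDFT1 minus control) against mean log2 signal for the 16 measured probe sets, coloured by gene. Grey boxes give the 5th to 95th percentile and lines the median of all 29891 measured probe sets in each signal range, and 4 member probe sets lie below the boxes.

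The related genes are given by list, with the brightest measured probe set for each gene. Among other LDL receptor family genes and their regulators, 14 of 18 were measured, 5 above 0 and 9 below, with a median of -0.04. At least 1.5-fold lower were 2 of the 14, against the 3.4% of all genes given above. LRP5, a Wnt co-receptor, had signals of 15.71 on the FDFT1 array and 30.6 on the control array (-0.86, error 0.50), and LRP1, a large endocytic receptor, had 19.42 and 35.71 (-0.77, error 0.50). Both were dim. For LRP1, 2 of 2 probe sets were below 0, the other at -0.042. LRP12 was at 0.27 with 2 of 3 probe sets above 0, LRP11 at 0.11 on 1 probe set and SORL1 at -0.23 with 1 of 2 below 0. MYLIP, the ubiquitin ligase that sends LDL receptors to degradation, was at 0.12 on its brightest probe set, and all 5 of its measured probe sets lay above 0, up to 0.88. VLDLR, the receptor closest to LRP8 in structure and ligands, was at 0.026 with signals of 46.93 and 49.61.

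Of 10 ligands and adaptors of LRP8, 5 were measured and 2 of these were above 0, with a median of -0.06. Reelin (RELN) and its adaptor DAB1 were not measured. The first listed probe set of RELN had signals of 3.79 on the FDFT1 array and 2.84 on the control array, and that of DAB1 0.52 and 0.39. CLU, the lipoprotein clusterin, was at -0.27 with only 1 of 3 probe sets below 0, FYN, a kinase of the reelin pathway, at -0.14 with 2 of 3 and PAFAH1B1 at -0.06 with 3 of 4. The FYN probe sets ran from -0.73 to 0.46. APOE was at 0.13 with 3 of 3 probe sets above 0 and CRKL at 0.026 (-0.08 without centring) with 2 of 2. By the brightest probe set none was 1.5-fold different in either direction, but another APOE probe set was at 1.03.

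Of 16 scavenger receptors and partners of SCARB1, 8 were measured, 5 above 0 and 3 below, with a median of 0.31. SCARF2 was at 0.96 (26.05 on the FDFT1 array and 14.43 on the control array, error 0.50) and the only one at least 1.5-fold higher, against 4.14% of all genes. SCARF1 was at 0.53 and CD36, a fatty acid and lipoprotein receptor, at 0.44 with 3 of 3 probe sets above 0. These were dim, and the median was -0.13 with a floor at the 75th percentile of signals. NHERF1, a PDZ-domain scaffold, was at -0.25, CXCL16 at -0.20 and SCARB2, the lysosomal relative of SCARB1, at -0.02 with signals of 995.5 and 1086 and 2 of 3 probe sets below 0. PDZK1, the adaptor that stabilises SCARB1 in mouse liver, was not measured, at 5.72 and 3.67 on its first listed probe set.

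Lysosomal lipid handling genes showed no common direction. Of 16, 14 were measured, 6 above 0 and 8 below, with a median of -0.02, and 1 was at least 1.5-fold lower (background 3.4%) and none higher (background 4.14%). This was GPR155, a lysosomal cholesterol sensor, at -0.62 (26.92 on the FDFT1 array and 44.64 on the control array, error 0.31), where only 1 of 3 probe sets was below 0. IGF2R, a mannose 6-phosphate receptor that sorts lysosomal proteins, was at -0.33 (777 and 1053, error 0.16) with 3 of 3 probe sets below 0. STARD3NL was at -0.25. LAMP2, a lysosomal membrane glycoprotein, was at 0.36 (1754 and 1468, error 0.16), with 2 of 4 probe sets above 0. TFEB, the transcription factor of lysosomal genes, was at 0.27 on 1 probe set and -1.15 on the other. GNPTAB was at 0.09 (-0.016 without centring) with 2 of 3 above 0. NPC1L1, the intestinal relative of NPC1, was not measured.

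Among other START and GRAMD1 transfer proteins, relatives of STARD4 in domain or function, 12 of 17 were measured, 5 above 0 and 7 below, with a median of -0.05. At least 1.5-fold higher were 2 of the 12 (background 4.14%), and none was 1.5-fold lower (background 3.4%). STARD5 was at 0.93 and DLC1 at 0.60, both against a control signal set to the floor, so these are bounds on the centred scale. The other measured DLC1 probe set lay at -0.26. GRAMD1C was at 0.39, GRAMD1A at -0.22, ACOT11 at -0.34 and STARD8 at -0.54. Of the relatives of TMEM97 and other sigma receptor genes, 3 of 7 were measured, 2 above 0 and 1 below, with a median of 0.048. EBP, the sterol isomerase that shares the fold of TMEM97, was at -0.28 (705.2 and 920.9, error 0.16) with 4 of 4 probe sets below 0. The EBP probe sets ran from -1.32 to -0.12. EBPL was at 0.048 (-0.058 without centring) and PGRMC2 at 0.11.

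The sterol-regulated genes named as SREBP2 targets give the setting for STARD4 and TMEM97. Of 16, 12 were measured, 5 above 0 and 7 below, with a median of -0.02 and none 1.5-fold different. LSS was at -0.40 with 3 of 3 probe sets below 0, and MSMO1 at -0.29 and MVD at -0.24 had 1 probe set each. In contrast, INSIG1, the sterol-regulated retention protein of the SREBP pathway, was at 0.28 with 2 of 3 probe sets above 0. Its signals were 483.2 on the FDFT1 array and 428.0 on the control array (error 0.22). DHCR7 was at 0.15 (error 0.22) with 1 of 2 probe sets above 0 and SQLE at 0.09 (error 0.16) with 2 of 4. The sign of SQLE comes from the centring, as it was -0.012 without it. Other probe sets of INSIG1 and DHCR7 lay as low as -0.35 and -0.41, and those of SQLE ran from -0.16 to 1.09. The LDL receptor itself was not analysed here.

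**Figure D4:**
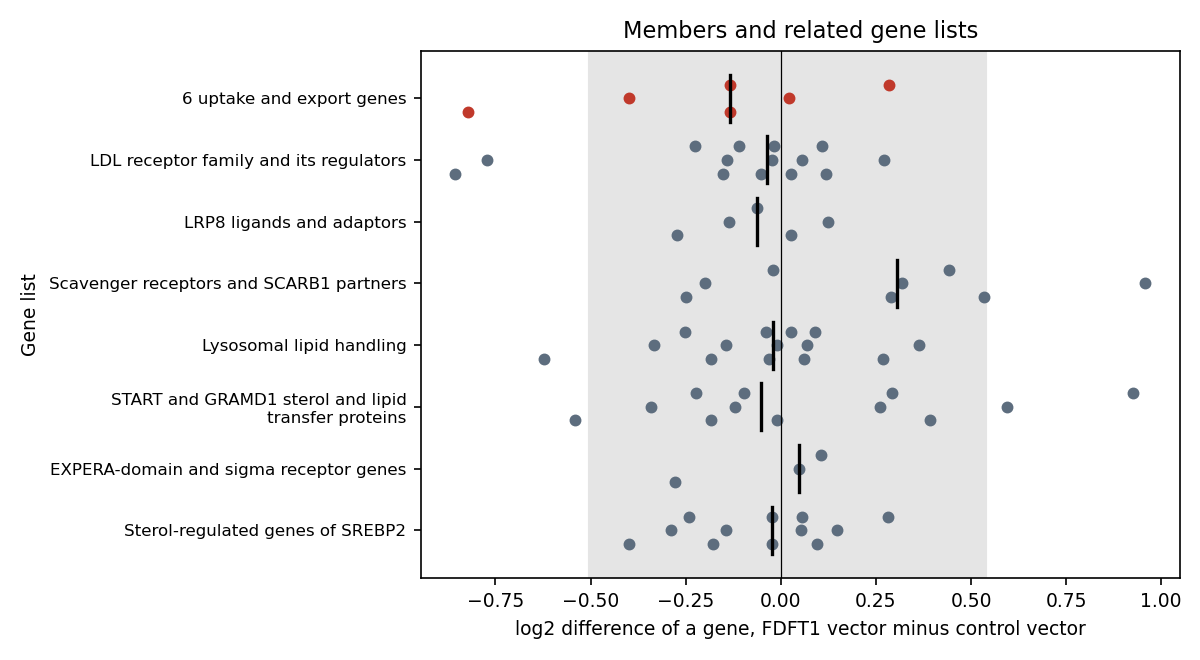
Centred log2 difference (horizontal axis, FDFT1 minus control) of each measured gene in 8 lists, 1 point per gene by its brightest probe set, with black bars for list medians and a grey band for the 5th to 95th percentile of all measured genes (-0.50 to 0.54). The 6 uptake and export genes (red) have a median of -0.13, with SCARB1 below the band.

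Of 8 alveolar type II markers, the origin given in the labels, 5 were measured. SFTPC had signals of 16.87 on the FDFT1 array and 29.33 on the control array, and SFTPB 35.25 and 31.97. ABCA3 had 55.57 and 79.94, NKX2-1 29.31 and 31.06 and LAMP3 58.77 and 53.0. SFTPD, SLC34A2 and NAPSA were under the floor on both arrays. The blood and immune list of 6 had 4 measured genes: CD79A, with signals of 40.56 on the FDFT1 array and 50.52 on the control array, HBB, with 18.35 and 13.21, and CD3E and ITGAM, each under the floor on the control array only. PTPRC and LYZ were under the floor on both. In the fibroblast and endothelial list of 6, the 3 measured genes were COL1A1 (82.98 and 65.52), PECAM1 (22.71 and 18.36) and DCN (12.35 and 14.77), and COL1A2, CDH5 and VWF were under the floor on both arrays. None of 4 hepatocyte markers was measured. The part of other cell types in the differences of the 6 genes was not tested.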

How the data were processed

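The authors deposited 1 linear MAS5 intensity per probe set and array; MAS5 comes from the submitters' processing notes. No version or scaling target was given in the sources used here. MAS5 subtracts mismatch probes, which makes dim signals unstable. Groups came from the sample titles. Depth does not apply to arrays, and their number, 1 per group, limits the precision: no test was possible.

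All further steps used Python 3.11.15 with pandas 2.3.3, numpy 2.4.6 and statsmodels 0.14.6. The 62 control probe sets were left out. The FDFT1 array was shifted on the log2 scale by the median difference over probe sets at or above the floor on both arrays, then values under the floor were set to it. Genes were named from the platform annotation: 41091 probe sets listed 1 gene, 1801 several and 11721 none. Values by gene and the probe-level error used only those with 1 gene, of which 41037 matched the GRCh38.p14 gene table. The floor, the centring and the shares and percentiles over all measured probe sets used probe sets whatever their annotation. For the probe-level error, the 2 brightest probe sets of each gene were paired where both fell in the same signal range, and the SD of their differences was divided by the square root of 2. A fold of 1.5 or 2 was the rule for counting. Named genes are all members and, of each list, up to 3 measured genes with the largest differences each way; VLDLR and genes not measured were named after their values were seen. The members and lists were chosen with earlier results of these data known. The steps were tested on data simulated with the same probe-level errors. The recovered error was not required to match where the mean log2 signal was under 5.

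Alternatives were no centring, quantile normalization, loess, no floor, a floor at the 75th percentile (99.4), the mean over probe sets, and leaving out _x_at, _s_at and _a_at probe sets.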

Additional observations from a re-analysis of the deposited data

How the results depend on the processing

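The median over the 6 genes lay between -0.24 (no centring) and -0.13 under the alternatives run. Of 76 values of single probe sets under an alternative, 73 moved by less than the probe-level error. The others were without centring: NPC2 200701_at at -0.24, TMEM97 212281_s_at at -0.084 and 212282_at at -0.12. With a floor at 99.4, 1 probe set was at least 1.5-fold lower and 0 were 2-fold lower, as NPC1 217584_at was no longer measured. Without _x_at, _s_at and _a_at probe sets, 1 was at least 1.5-fold lower, as the SCARB1 probe set was left out. Without a floor, the dim probe sets entered and gave 2 at least 2-fold lower, 1 at least 1.5-fold higher and 1 at least 2-fold higher. List medians moved without centring to -0.14 for the LDL receptor family, -0.13 for lysosomal lipid handling, -0.16 for START and GRAMD1 proteins, -0.058 for relatives of TMEM97 and -0.13 for SREBP2 targets. Without _x_at, _s_at and _a_at probe sets they were 0.12 for scavenger receptors, -0.088 for lysosomal lipid handling, -0.18 for START and GRAMD1 proteins and -0.14 for SREBP2 targets. With the floor at 99.4, scavenger receptors were at -0.13, and without a floor the relatives of TMEM97 were at -0.13. Without centring, the shift of -0.11 between the arrays was not taken out. The floor at 99.4 and leaving out probe sets by suffix left fewer probe sets measured, and having no floor left more. Other causes of these moves in the list medians were not tested. No paired analysis was possible because each group has 1 array. For the same reason no replicate could be left out, and differences between cultures were not measured.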
